A study of Mus musculus with 4 samples.

Results

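The zona pellucida genes Zp1, Zp2 and Zp3 and the oocyte-secreted protein genes Oosp1, Oosp2 and Oosp3 were followed in fully grown mouse oocytes of both chromatin classes. They were taken by symbol from a table of 17945 genes: 6 genes with 8 transcript models of 48574 in all. Germinal vesicle oocytes, which are arrested in meiotic prophase, came from unprimed female mice at postnatal day 20 and were kept arrested with milrinone, an inhibitor of cAMP breakdown, so both groups carried that treatment. A deep learning classifier placed the live oocytes, from bright-field images, in the NSN class, in which chromatin does not ring the nucleolus, or in the SN class, in which it does. The class is therefore a prediction from the image. There were 2 libraries of each class, made from oligo(dT)-captured RNA of 15 NSN and 15 SN oocytes. How the oocytes were divided between libraries, and whether the replicates came from separate animals, is not given in the labels, so the p-values below cover no more than library-to-library spread, part of which may be technical. Because RNA was captured by its poly(A) tail, a change in tail length and a change in level cannot be told apart.

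The zona pellucida is the glycoprotein coat that the growing oocyte secretes around itself and through which sperm must pass. ZP2 and ZP3 are the main filament subunits in the mouse and ZP1 cross-links the filaments. After fertilization ZP2 is cut by ovastacin, the product of Astl, which blocks further sperm. FIGLA, a basic helix-loop-helix factor, activates the zona genes through E-boxes (CANNTG). The OOSP proteins are small proteins secreted by the oocyte and related to placental PLAC1. SN oocytes have largely stopped transcription, and their mRNA is the store on which maturation draws.

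Zp1 lies on the minus strand of chromosome 19 at 10914296 to 10920601, Zp2 on the minus strand of chromosome 7 at 120126762 to 120145291, and Zp3 on the plus strand of chromosome 5 at 135980105 to 135988624 (RefSeq, GRCm38.p6). The Oosp genes are neighbours within 64.6 kb of chromosome 19. Oosp2 (11647284 to 11660559) and Oosp1 (11667460 to 11691051) are on the minus strand, and Oosp3 (11697055 to 11711858) is on the plus strand. Promoter sequence from RefSeq (GRCm38.p6) was matched for 3 of the 6 genes. It is shown because these genes are among the most abundant of the oocyte. E-boxes are in capitals, and the stretch ends at the most upstream annotated start, which leaves out 6 bases for Zp3 and 99 for Oosp1.
Zp3, chr5:135979855-135980098, plus strand: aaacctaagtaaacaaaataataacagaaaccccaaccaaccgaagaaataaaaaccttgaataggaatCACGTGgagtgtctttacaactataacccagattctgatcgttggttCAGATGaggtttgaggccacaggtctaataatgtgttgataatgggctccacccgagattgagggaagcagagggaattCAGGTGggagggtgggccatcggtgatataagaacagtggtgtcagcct
Oosp1, chr19:11691151-11691301, minus strand: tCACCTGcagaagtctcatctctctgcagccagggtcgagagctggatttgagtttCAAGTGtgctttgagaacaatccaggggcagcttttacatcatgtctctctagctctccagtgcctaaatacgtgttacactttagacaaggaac
Oosp2, chr19:11660560-11660809, minus strand: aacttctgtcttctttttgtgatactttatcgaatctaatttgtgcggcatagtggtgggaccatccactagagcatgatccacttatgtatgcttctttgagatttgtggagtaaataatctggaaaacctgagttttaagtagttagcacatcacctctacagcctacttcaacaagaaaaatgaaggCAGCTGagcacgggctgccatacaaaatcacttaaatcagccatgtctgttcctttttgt

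In the 250 bases before the RefSeq start, CANNTG, which reads alike on both strands, occurred 3 times for Zp3, 5 times for Oosp1 and 1 time for Oosp2. For Oosp1, the matches that begin 93, 59 and 48 bases before the RefSeq start lie in the 99 bases left out above. These bases are downstream of another annotated start. CANNTG was also present in 66.2% of 32851 RefSeq promoter windows of that length, with a median number of 1 per window. The form CACGTG, which is one of the CANNTG matches, was present for Zp3 with its first base 181 bases before the start, and in 6.02% of all windows. TATAA, searched on both strands, lay 29 and 160 bases before the Zp3 start and was present in 22.8% of windows. These matches describe the letters of the window and were not tested as binding sites.

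All 6 genes were among the most abundant of the oocyte, and their order by level per length was nearly the same in every library. Levels between genes were compared in the authors' TPM (a length-corrected level, scaled to the same total in each library), summed over the models of a gene. Zp3 was at 8778 and 8439.8 TPM in NSN replicates 1 and 2 and at 9739 and 8977 TPM in SN replicates 1 and 2, and by mean TPM it ranked 7 of all genes. Zp3 stood far above the other members in every library. Oosp1 was at 3882 and 3600.4 TPM in NSN and at 5001 and 3969 TPM in SN, rank 24. Zp2 was at 3695 and 3499 TPM in NSN and at 3655 and 3623.5 TPM in SN, rank 28. Oosp1 exceeded Zp2 within each of the 4 libraries, by a little in NSN and most in SN replicate 1, although their ranges over libraries overlapped. Oosp3 was at 2752 and 2791 TPM in NSN and at 2916 and 2812 TPM in SN, rank 41. Oosp2 was at 2904 and 2557 TPM in NSN and at 2773 and 2819 TPM in SN, rank 43. Oosp2 and Oosp3 could not be ordered, since each was the higher one in 2 of the libraries. Zp1 was the lowest member in every library, at 1398 and 1542 TPM in NSN and at 1418 and 1417 TPM in SN, rank 111.

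**Figure D1:**
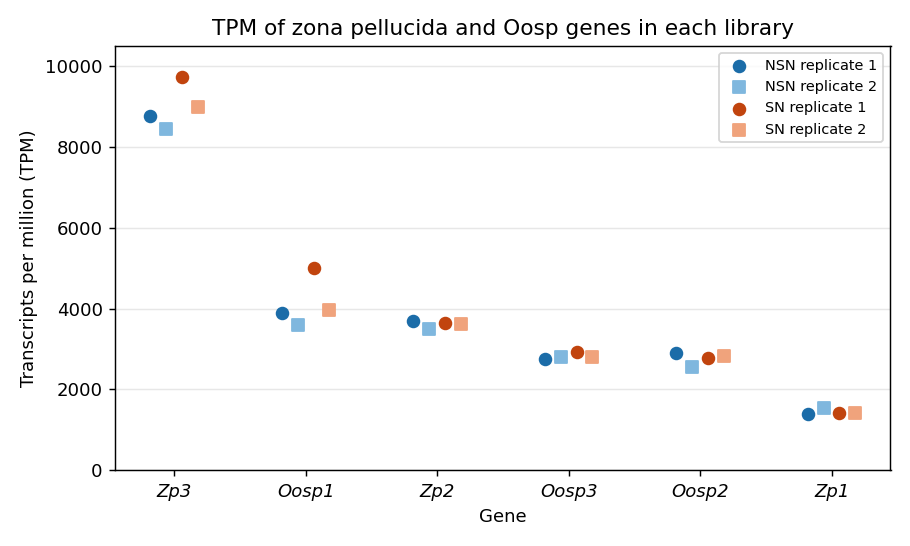
TPM (linear axis) of each gene in each of the 4 libraries, with NSN in blue and SN in red, circles for replicate 1 and squares for replicate 2. Zp3 lies between 8439.8 and 9739 TPM, above all other members, and Zp1 is the lowest, between 1398 and 1542 TPM.

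Together the 6 genes made up 2.34% and 2.24% of the TPM in NSN and, for SN, 2.55% and 2.36%. Of these, the zona genes held 1.39% and 1.35% in NSN and 1.48% and 1.40% in SN. Within the zona genes, Zp3 took 63.3% and 62.6% of the TPM in NSN and 65.8% and 64.0% in SN. Zp1, the cross-linking subunit, took 10.1% and 11.4% in NSN and 9.57% and 10.1% in SN. Zp3 was the largest zona transcript in each library, and Zp2, the ligand that sperm bind, took 24.7% to 26.6%. Within the Oosp genes, Oosp1 took 40.7% and 40.2% in NSN and 46.8% and 41.3% in SN, so that SN replicate 1 stood apart.

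Few sequence words of these genes occurred in other genes. Estimated counts per library ran from 27750 for Oosp2 in NSN replicate 2 to 301494 for Zp3 in SN replicate 1. For Zp1, Zp3 and the Oosp genes, which have 1 model each, each count was a whole number in all 4 libraries. Over all transcript models 59.8% of estimated counts were not whole. That share includes division between models of the same gene, so it is no measure of sharing between genes. Of the 25-base words of their GENCODE M21 transcripts, 0 occurred in a transcript of another gene for Zp1, Zp3, Oosp1 and Oosp2. For Oosp3, 37 of 783 words also occurred in Gm19224, and for the curated Zp2 transcript 19 of 2197 words occurred in Gm49596. The Oosp genes shared no such word with each other.

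The design asks whether transcripts differ between oocytes of the SN and NSN classes, and none of the 6 genes passed the test of that difference. In edgeR's quasi-likelihood test with Benjamini-Hochberg adjustment over all genes, 0 of 6 were called, against 0 of 13426 tested (0%). The same test gave 539 genes higher in SN (4.01%) and 465 lower (3.46%) at an unadjusted p under 0.05, with Oosp1 among the higher ones and no member among the lower, and DESeq2 called 47 of the 896 genes to which it gave an adjusted p (5.25%), none of them a member. All 6 passed the filter on low counts. Values for this comparison are CPM, counts scaled to the library size adjusted by TMM factors, and fold changes are SN over NSN.

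Zp3, the filament subunit without which mice make no zona, was at 7095 and 6217 CPM in NSN and at 9088 and 7267 CPM in SN. Both SN libraries were above both NSN libraries, but SN replicate 2 only just above NSN replicate 1. Its log2 fold change was 0.30 (SE 0.20, n = 2 each; edgeR adjusted p = 0.74), or 1.23-fold. Zp2 was at 5030.3 and 4369 CPM in NSN and at 5771 and 5033 CPM in SN, with NSN replicate 1 and SN replicate 2 almost equal. The log2 fold change of Zp2 was 0.20 (SE 0.18; edgeR adjusted p = 0.81). Zp1 was at 1747 and 1757 CPM in NSN and at 2050.0 and 1779 CPM in SN, so that only SN replicate 1 stood clear of the others. The log2 fold change of Zp1 was 0.13 (SE 0.15; edgeR adjusted p = 0.86).

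Among the Oosp genes, Oosp1 had the largest difference of the 6. It was at 1888 and 1594 CPM in NSN and at 2795 and 1921 CPM in SN. SN replicate 1 was well above the rest and SN replicate 2 close to NSN replicate 1. Its log2 fold change was 0.44 (SE 0.19, n = 2 each; edgeR unadjusted p = 0.0402 and adjusted p = 0.66), or 1.35-fold, and DESeq2 gave an adjusted p of 0.0603. Oosp1 was called without SN replicate 2 (log2 0.69; edgeR adjusted p = 0.0041), when the SN class was SN replicate 1 alone and assumed to vary like the NSN libraries. Without SN replicate 1 its log2 fold change was 0.15 (edgeR adjusted p = 0.99). Oosp2 was at 991.8 and 793.1 CPM in NSN and at 1082 and 950.8 CPM in SN, with overlapping classes (log2 0.19, SE 0.15; edgeR adjusted p = 0.77). Oosp3 was at 1207 and 1114 CPM in NSN and at 1467 and 1225 CPM in SN, with SN replicate 1 again the highest (log2 0.21, SE 0.15; edgeR adjusted p = 0.74).

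All 6 fold changes were above 0 on the TMM scale, where 48% of all tested genes were, but Zp1, Zp2 and Zp3 were below 0 with cyclic loess scaling and Zp1 also with library size alone and on TPM. The median of the 6 was a log2 of 0.21, against -0.01 over all tested genes. In 5 of the 6 both SN libraries were above both NSN libraries, against 18.3% of all tested genes. Genes as abundant as these differed from the rest of the table. Of the 170 other genes above a log2 CPM of 9.5, 97.6% were higher in SN, their median log2 fold change was 0.25, and 61.2% had both SN libraries above both NSN libraries. The members' median was slightly below that value. With cyclic loess, which removes trends with abundance, 58.2% of those 170 genes and 3 of the 6 members were higher in SN, and the members' median was -0.01 against 0.03.

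**Figure D2:**
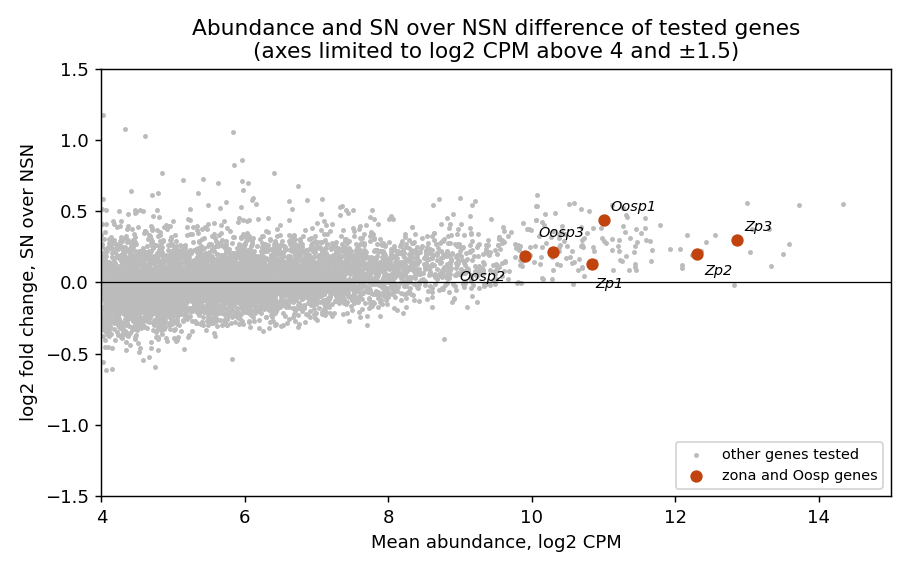
Mean abundance in log2 CPM (horizontal) and log2 fold change, SN over NSN (vertical), of tested genes in grey and of the 6 genes in red. Genes to the right, the members included, lie mostly above 0 on this TMM scale, and the members sit within the range of other genes of like abundance, from 0.13 for Zp1 to 0.44 for Oosp1.

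The difference moved with single libraries. As deviations from a gene's mean over the libraries, Zp3 was at -0.05 and -0.24 (log2 CPM) in NSN and at 0.31 and -0.02 in SN. The median of the 170 other abundant genes was at -0.05, -0.20, 0.25 and -0.01 in the same libraries, so Zp3 followed them closely. Oosp1 followed the same course with wider steps, at -0.09 and -0.33 in NSN and at 0.48 and -0.06 in SN. Zp1 departed from it in NSN replicate 2, where it was at -0.06. Without SN replicate 1, the log2 fold changes of the 6 genes ranged from 0.03 for Zp1 to 0.15 for Oosp1. Without SN replicate 2 they ranged from 0.23 for Zp1 to 0.69 for Oosp1. Leaving out NSN replicate 2 brought Oosp2 to 0.04 and Zp2 to 0.10.

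**Figure D3:**
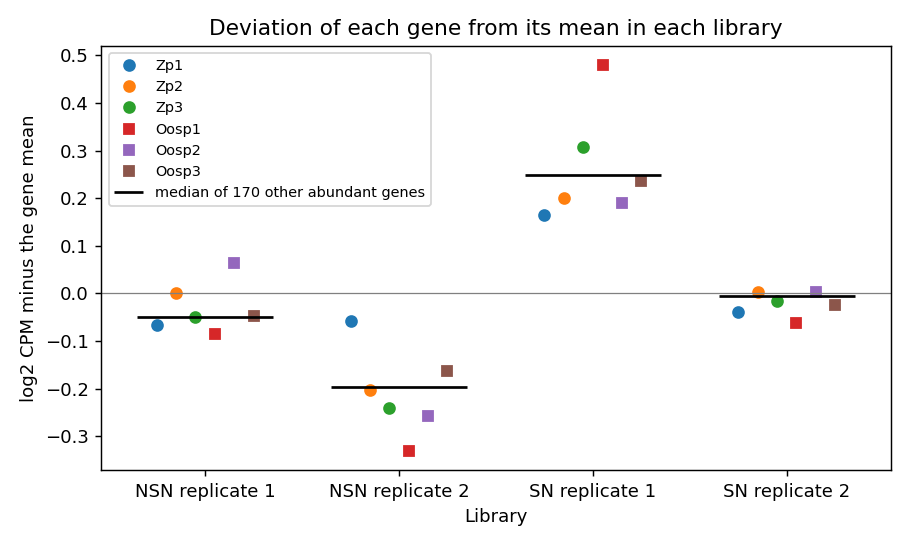
Deviation of each gene's log2 CPM from its mean over the libraries (vertical) in each library (horizontal), with circles for zona genes, squares for Oosp genes and black bars for the median of 170 other abundant genes. All 6 genes are highest in SN replicate 1, led by Oosp1 at 0.48, and near 0 in SN replicate 2.

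By root mean square difference of these deviations over the 4 libraries, the genes most like Zp3 among 8262 curated, named genes of at least 5 CPM were Tesc (0.015), Igsf23 (0.020) and Lepr (0.023), all on the log2 scale. Genes within 0.05 of Zp3 numbered 80, so the likeness singles out no gene. Those most like Oosp1 were Gmeb1 (0.022), Oog1 (0.031) and Elobl (0.037), with 12 genes within 0.05. Among the members, Zp2 and Oosp3 were the closest pair (0.038) and Zp1 and Oosp1 the most distant (0.209).

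Ratios between members within a library do not depend on the scaling of libraries. Ratios were compared by an exact two-sided permutation test, which with 2 libraries against 2 cannot give a p below 0.333, and after adjustment over the 15 pairs compared the smallest was 0.714. The TPM of Zp1 over that of Zp3 was 0.159 and 0.183 in NSN and 0.146 and 0.158 in SN, so NSN replicate 1 and SN replicate 2 were nearly equal. The TPM of Zp2 over that of Zp3 was 0.421 and 0.415 in NSN and 0.375 and 0.404 in SN, lower in both SN libraries. Such separation of the classes occurred in 7 of the 15 pairs, so it does not set this pair apart. With no class difference, a single pair would separate with a probability of 0.333. The pairs share genes and are not independent, and the share of separated ratios between other genes was not computed. Whether 7 pairs are more than chance would give was therefore not tested. Zp2 over Oosp1 was at 0.952 and 0.972 in NSN and at 0.731 and 0.913 in SN, and SN replicate 1 again stood apart. Oosp1 over Oosp2 was at 1.34 and 1.41 in NSN and at 1.80 and 1.41 in SN, with overlapping classes.

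**Figure D4:**
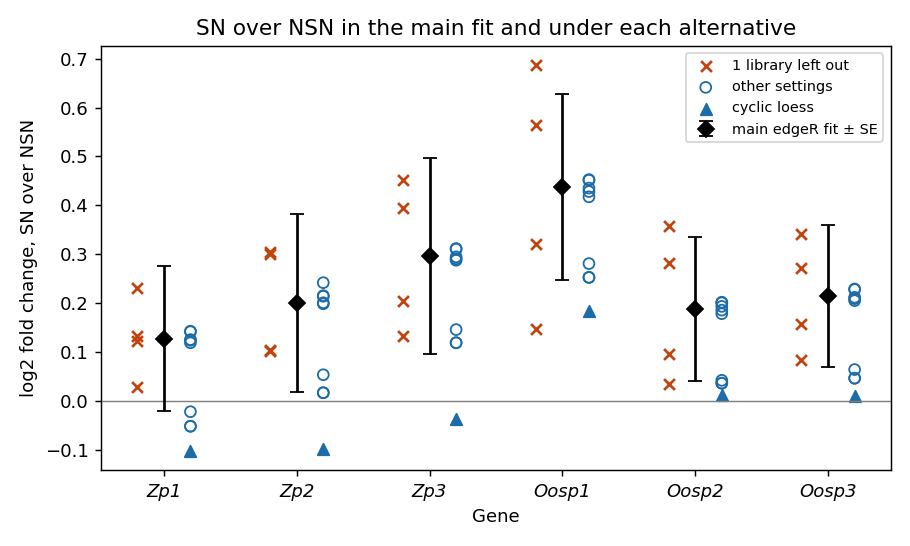
Log2 fold change, SN over NSN, of each gene in the edgeR fit (black diamonds, bars are ± 1 SE), with 1 library left out (red crosses), under other settings (blue circles) and with cyclic loess (blue triangles). The Zp genes reach below 0 with cyclic loess, and Oosp1 spans 0.15 to 0.69 when a library is left out.

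Zp2 was the only member with more than 1 transcript model. The curated model NM_011775.7 held 56.6% and 59.8% of the Zp2 TPM in NSN and 57.0% and 64.4% in SN. A shorter predicted model, XM_006507590.3, held 41.2% and 38.0% in NSN and 40.4% and 32.9% in SN, and was lowest in SN replicate 2, where the curated model was highest. The last model, XM_006507589.2, was at 79.4 and 74.3 TPM in NSN and at 95.3 and 97.8 TPM in SN, or 2.12% to 2.70% of the gene. Both of its SN values were above both NSN values. The share of all transcript models that separate in this way was not computed.

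The Ensembl transcripts that the table pairs with the curated model and with XM_006507589.2 each have 18 exons, of which 16 have the same bounds. Exon 1 differs by 1 base at its start. The last exon differs in place, at 120132340 to 120132546 for the curated model's partner and at 120126772 to 120126991 for the other (minus strand, chromosome 7, GENCODE M21, GRCm38). The exons of the RefSeq models themselves were not read. Lengths implied by the authors' FPKM, after allowance for fragment size, were 1991.9 to 2003.2 bases for the curated model. For XM_006507589.2 they were 2145.0 to 2156.2 bases. That gap is wider than between the Ensembl transcripts, of 2221 and 2233 bases, so XM_006507589.2 may differ from its partner. The coding sequence across this junction is shown because the Ensembl transcripts part there. The last 30 bases of exon 17, common to both, are in lower case. Coding bases of each last exon are in capitals, the first 60 for the curated model's partner and all 47 up to the stop codon for the other.
Zp2 curated model: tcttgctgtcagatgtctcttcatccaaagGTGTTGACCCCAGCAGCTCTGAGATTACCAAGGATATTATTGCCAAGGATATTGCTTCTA
Zp2 alternative last exon: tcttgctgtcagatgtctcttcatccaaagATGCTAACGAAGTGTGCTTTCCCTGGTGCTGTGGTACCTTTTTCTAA

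In the transcript fit, edgeR called 0 of 29835 models (0%) and DESeq2 1178 of 32227 (3.66%). XM_006507589.2, whose Ensembl partner has the alternative last exon, was at 124.5 and 107.4 CPM in NSN and at 171.0 and 153.9 CPM in SN. Its log2 fold change was 0.49 (SE 0.11, n = 2 each; edgeR adjusted p = 0.70), and it was called by DESeq2 (adjusted p = 0.0027). In the authors' deposited table it had a log2 ratio of 0.49 with an unadjusted p of 4.5e-05. The curated Zp2 model had a log2 fold change of 0.23 (SE 0.09; edgeR adjusted p = 0.85) and the shorter model 0.07 (SE 0.23; edgeR adjusted p = 1.00). Reads that match several Zp2 models were divided between them by likelihood, an error that these tests do not contain. The authors' deposited table gave the curated Zp2 model a log2 ratio of 0.24 (unadjusted p = 0.0148), Zp3 0.29 (unadjusted p = 0.129) and Oosp1 0.43 (unadjusted p = 0.0479).

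**Figure D5:**
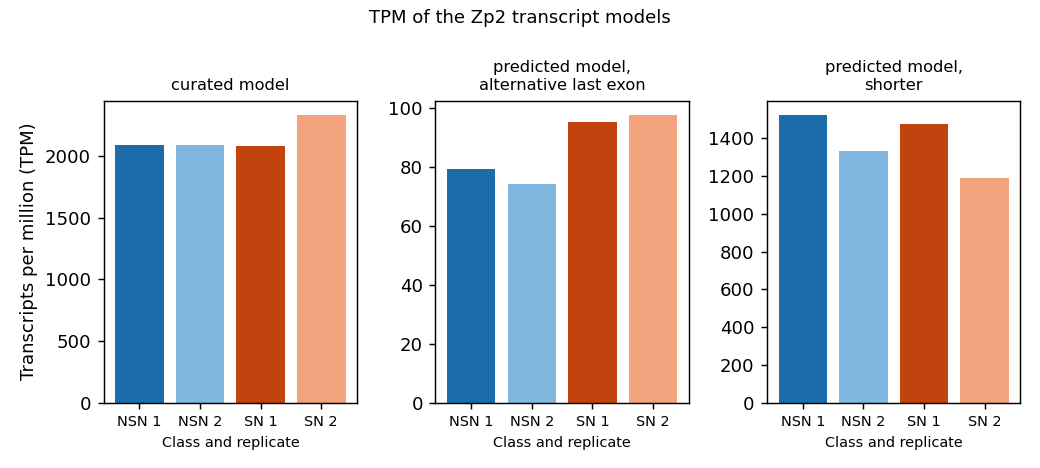
TPM of the Zp2 models in each library, with NSN in blue and SN in red and a separate linear scale for each panel, each from 0. XM_006507589.2, titled by the alternative last exon of its Ensembl partner, is the rarest, at 74.3 to 97.8 TPM. It is higher in both SN libraries, and how many other models are so was not computed.

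Other genes of the egg coat did not pass the test either. Of 13 transcription regulators of the oocyte and zona, 0 were called, and 5 were higher and 8 lower in SN. Their median log2 fold change was -0.04 against -0.01 for all genes. With library size alone or on TPM, 1 was higher and 12 lower. The median of all tested genes was itself -0.154 with library size alone and -0.133 on log2(TPM + 1). Tcf4, an E-protein, had the smallest unadjusted p of these, at 5.30 and 6.72 CPM in NSN and at 4.22 and 4.19 CPM in SN (log2 -0.52, SE 0.22; edgeR adjusted p = 0.66). Sohlh1, a germ cell helix-loop-helix factor, was at 0.90 and 0.60 CPM in NSN and at 0.27 and 0.32 CPM in SN (log2 -1.33, SE 0.61; edgeR adjusted p = 0.66). Figla, named for its role and not by the rule, was at 72.3 and 51.3 CPM in NSN and at 68.9 and 62.3 CPM in SN, with overlapping classes.

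Of 11 genes of zona modification and the cortical granules, 10 were tested and 0 called, with 3 higher and 7 lower in SN (5 and 5 with cyclic loess, 1 and 9 on TPM). Astl, the protease that cuts ZP2, was at 314.2 and 316.8 CPM in NSN and at 275.7 and 269.0 CPM in SN. Both SN libraries lay below both NSN libraries, as in 20.7% of all tested genes, and the log2 fold change was -0.21 (SE 0.10; edgeR adjusted p = 0.67). Among the 359 genes at a log2 CPM of 8 to 9, where Astl lies, 83.0% were higher in SN, with a median log2 of 0.12. Snap23, a membrane fusion protein, was at 40.1 and 45.6 CPM in NSN and at 45.8 and 51.0 CPM in SN (log2 0.17, SE 0.11; edgeR adjusted p = 0.73). Of 31 genes for the folding, glycosylation and processing of secreted glycoproteins, 0 were called, 13 were higher and 18 lower in SN (4 and 27 on TPM). The median log2 fold change was -0.07. For both lists, the values on TPM stand beside a median of all tested genes that was itself -0.133 there. Uggt1, which checks glycoprotein folding, was at 27.7 and 27.6 CPM in NSN and at 21.6 and 22.7 CPM in SN (log2 -0.32, SE 0.12; edgeR adjusted p = 0.66). Hspa5, the main chaperone of the endoplasmic reticulum, was at 180.8 and 200.3 CPM in NSN and at 148.6 and 167.5 CPM in SN (log2 -0.27, SE 0.10; edgeR adjusted p = 0.66).

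Libraries held 32307398 to 37023401 estimated counts, and both SN libraries were deeper. Oocyte markers were present throughout, with 0 of 10 called. On the TMM scale 10 of 10 were higher in SN, but 5 with library size alone and 4 with cyclic loess or on TPM. Npm2, a histone chaperone, had a log2 fold change of 0.50 (SE 0.17; edgeR adjusted p = 0.66) and Ooep, of the subcortical maternal complex, 0.52 (SE 0.20; edgeR adjusted p = 0.66). The 10 oocyte markers summed to 16625 and 14858 CPM in NSN and to 20503 and 16541 CPM in SN. Granulosa and cumulus markers summed to 91.1 and 75.4 CPM in NSN and to 80.4 and 82.0 CPM in SN over 12 genes. Of these, 3 of 8 tested genes were higher in SN and 0 were called. On TPM, where the median of all tested genes was also below 0, 1 of 8 was higher. Foxl2 was at 0 in 3 libraries. About 41.2 to 46.6 CPM of that sum was Cyp19a1, and Nr5a2 was at no less than 22.5 CPM. Several rarer markers, looked up after their values were seen, were highest in NSN replicate 1. Inha had 378 and 141 counts in the NSN libraries and 123 and 242 for SN. Gja1 had 150 and 29 counts in the NSN libraries and 17 and 54 for SN. Cyp19a1, Nr5a2, Inhba and Wt1 were not highest there. Theca and stroma markers summed to 6.85 to 8.77 CPM over 7 genes, led by Cyp11a1 and Dcn, with 1 of 4 tested genes higher in SN and 0 called. Blood, immune and endothelial markers summed to 15.8 and 16.8 CPM in NSN and to 18.4 and 20.5 CPM in SN, led by Pecam1 and Cd68, with 4 of 4 tested genes higher in SN (3 of 4 with library size alone) and 0 called. At an unadjusted p under 0.05, 2 of these 4 were higher in SN, Lyz2 and Hba-a1, both named after their values were seen. Hba-a1, an alpha globin gene with a near-identical copy, had 0 estimated counts in both NSN libraries, against 18.2 and 26.0 for SN (edgeR adjusted p = 0.38). Lyz2, a myeloid lysozyme, had 0 and 1 counts in the NSN libraries, against 27 and 35 counts for SN (edgeR adjusted p = 0.36). The other 2 tested genes of that list were Pecam1 (log2 0.05, SE 0.15) and Cd68 (log2 0.69, SE 0.35). Ptprc, Adgre1 and Hbb-bs had too few counts to be tested. Ptprc had 1 and 0 counts in NSN and 0 and 1 for SN. Adgre1 had 0 and 0 in NSN and 3 and 0 for SN. Hbb-bs had 0 and 1 in NSN and 2.61 and 6.58 for SN. The part of cells other than oocytes in the results was not tested.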

How the data were processed

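The authors deposited 1 table of RefSeq transcript models with estimated counts, TPM, FPKM, a depth-normalized signal, and their own log2 ratio and unadjusted p-value per model. Per the submitters' processing notes, the tools included HISAT2, Bowtie2 and RSEM and the build was mm10; versions are not given in the sources used here. TPM was used as deposited for levels, the authors' FPKM and normalized signal were not tested, and class means were not used.

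Estimated counts were summed per gene ID and rounded. Genes passing filterByExpr (13426) were fitted in edgeR 4.0.16 (R 4.3.3) with TMM factors and the robust quasi-likelihood test at an adjusted p of 0.05; the SE came from the F statistic. Transcript models were fitted alike. Ratios between members used exact permutation in scipy 1.17.1. Alternatives were DESeq2 1.42.0, limma-trend 3.58.1 on log2(TPM + 1) and log2(TPM + 0.1), cyclic loess, other scalings, no filter, curated models, the replicate block and each library left out. The script was tested on simulated data of 13426 genes. It recovered 65.7% of 67 genes changed 1.5-fold and 91.0% of 67 changed 2-fold, and called 23 unchanged genes. No change below 1.5-fold was simulated. Counts were drawn independently for each gene and without the TMM factors, and only genes above a CPM floor were changed. The shift between libraries that abundant genes shared was not simulated. These shares are therefore not the power of the test for the members. A count floor of 3 corresponds to 0.081 to 0.0929 CPM. The floor covers counting error only.

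The lists covered zona and oocyte transcription regulators, glycoprotein folding, zona modification, other ZP-domain genes, and markers of oocyte, granulosa, theca and blood cells. All 6 members are named, and of each list the 2 genes with the smallest unadjusted p, or the most abundant for other cells. The members and lists were chosen with earlier results of these data known. Eng, Cyp17a1 and Cdh5, also listed, were not analysed here.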

Additional observations from a re-analysis of the deposited data

How the results depend on the processing

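On other scalings the zona genes changed sign: the log2 fold change of Zp1 was -0.021 with library size alone, -0.051 on log2(TPM + 1) and on log2(TPM + 0.1), and -0.102 with cyclic loess, where Zp2 was at -0.098 and Zp3 at -0.037. The cause was not tested. Library size alone moved the median of all genes to -0.154, and the TPM settings to -0.133 and -0.179, so that Zp1 lay above the all-gene median in each of these 3. The Oosp genes stayed above 0 in each alternative run. With a library left out, the log2 ranged from 0.029 to 0.231 for Zp1, 0.103 to 0.306 for Zp2, 0.133 to 0.453 for Zp3, 0.148 to 0.686 for Oosp1, 0.036 to 0.358 for Oosp2 and 0.084 to 0.343 for Oosp3. Calls among members were 0 in each alternative but 1, Oosp1 without SN replicate 2.

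Genes called numbered 0 in the main test, 15 with no low-count filter, 15 with library size alone (11 higher in SN), 47 with DESeq2 (46 higher), 47 (24 higher) and 45 (26 higher) on TPM, 1 with curated models only, and 2 to 289 with a library left out. The replicate block gave 44 calls, all higher in SN and no member among them, with Zp3 at 0.29 and Oosp1 at 0.42. The labels do not say that a replicate number is shared. Deviations of same-numbered libraries from their class mean correlated at 0.029 across the 13426 tested genes. The median of the 170 other abundant genes was higher in replicate 1 in both classes (-0.05 and -0.20 in NSN, 0.25 and -0.01 in SN). Whether same-numbered libraries are paired cannot be told from these values. Of 56 values for transcript models, 53 kept direction and side of the threshold. The shorter Zp2 model ranged from -0.197 to 0.302 with a library left out. The SN minus NSN differences of the 15 ratios changed sign in 9 of 90 values, over 5 pairs; without NSN replicate 2, Zp1 over Zp2 went from -0.068 to 0.042 and Zp1 over Oosp2 from -0.088 to 0.075 (log2). With at least 27750 counts in each library for each member, counting error was small. The SE moved with the setting. For Zp1 it was 0.149 in the main fit, 0.105 with library size alone and 0.084 with the replicate block. What set the precision was not tested.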

Other observations

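Relatives of the zona and Oosp genes were far below the members in the same libraries. Of 10 other ZP-domain or Oosp-related genes in the table, 7 were tested, 3 were higher and 4 lower in SN (4 and 3 with cyclic loess), and 0 were called by edgeR. Tgfbr3, a co-receptor for inhibin and TGF-beta, was at 20.4 and 20.9 CPM in NSN and at 17.7 and 18.9 CPM in SN (log2 -0.17, SE 0.13; edgeR adjusted p = 0.76). Zpld1 was at 2.71 and 4.23 CPM in NSN and at 2.80 and 2.44 CPM in SN (log2 -0.41, SE 0.30; edgeR adjusted p = 0.76). Plac1, the placental relative of the Oosp genes, had 39 and 7 counts in the NSN libraries and 36 and 30 counts for SN, where Oosp2 had at least 27750.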
